A study of Mus musculus with 12 samples.

Results

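The 34 genes described here encode the machinery that carries glucose through glycolysis and moves lactate and pyruvate across membranes or into mitochondria. They were chosen by name, though with earlier results of these data known. Each is a row of the count table whose Ensembl gene carries one of 34 mouse symbols, and all 34 were found among 46078 genes. They comprise 2 glucose transporters, 3 hexokinases, glucose phosphate isomerase with 3 phosphofructokinases, 4 PFKFB enzymes, 10 genes of lower glycolysis, 2 lactate dehydrogenases, 3 monocarboxylate transporters, and pyruvate dehydrogenase with its kinases (6 genes). RNA was sequenced from the ventrolateral white matter of the mouse spinal cord (strain C57Bl6), cut out by laser capture microdissection. Young mice were 6 weeks old and middle-aged mice were 8 months old. In each age, naïve white matter was compared with white matter taken 72 h after a local injection of lysolecithin, a detergent-like lipid that strips myelin from axons. The controls were naïve mice, so that effects of the injection itself and of the lipid cannot be told apart. Naïve and injured tissue of each age made 4 groups of 3 libraries. Tissue of 5 mice was pooled per condition. The study describes its data points of lesion RNA as pools of mice, so a library is taken here as a pool. The sources do not say whether the pools of a group held different mice. The p-values below therefore measure the spread between these pooled libraries, which may be technical, and not the spread between mice. The comparisons of injury and of age share libraries and are not independent of each other.

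Glycolysis splits glucose into pyruvate, and each step is run by one of several isoenzymes that differ between cell types. Pyruvate either enters mitochondria through pyruvate dehydrogenase or is reduced to lactate by lactate dehydrogenase, and monocarboxylate transporters carry lactate in or out of the cell. In white matter, glial cells are known to pass lactate to axons. Activated macrophages and microglia are known for high glycolysis, with hexokinase 2, lactate dehydrogenase A and the lactate exporter MCT4 (Slc16a3) among the genes that hypoxia-inducible factors switch on. These factors bind a short core, ACGTG or GCGTG.

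The upstream sequences of 4 members on which the isoform results turn are shown first, because 3 of them rose after injury and the last one fell. Each is the 250 bases before the RefSeq start on GRCm38.p6 that lies nearest to the gene's start in GENCODE, written 5′ to 3′ on the gene's strand, and capitals mark every ACGTG or GCGTG on either strand (CACGT or CACGC on the printed one). CACGTG holds ACGTG on both strands and was counted as 1 stretch. Hk2 lies at chr6:82774455-82774704 (minus strand), Ldha at chr7:46845554-46845803 (plus strand), 4329 bases from the start of the gene in GENCODE, Slc16a3 at chr11:120948817-120949066 (plus strand) and Ldhb at chr6:142507958-142508207 (minus strand).
Hk2: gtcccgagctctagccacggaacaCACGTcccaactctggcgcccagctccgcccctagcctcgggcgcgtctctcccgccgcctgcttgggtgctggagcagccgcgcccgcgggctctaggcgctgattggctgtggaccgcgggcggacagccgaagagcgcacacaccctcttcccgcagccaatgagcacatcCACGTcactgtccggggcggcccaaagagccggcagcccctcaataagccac
Ldha: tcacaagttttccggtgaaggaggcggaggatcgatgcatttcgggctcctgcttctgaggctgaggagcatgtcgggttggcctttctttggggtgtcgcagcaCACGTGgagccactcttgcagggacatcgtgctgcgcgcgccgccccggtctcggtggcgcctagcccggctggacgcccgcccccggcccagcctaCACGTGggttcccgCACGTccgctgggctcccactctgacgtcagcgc
Slc16a3: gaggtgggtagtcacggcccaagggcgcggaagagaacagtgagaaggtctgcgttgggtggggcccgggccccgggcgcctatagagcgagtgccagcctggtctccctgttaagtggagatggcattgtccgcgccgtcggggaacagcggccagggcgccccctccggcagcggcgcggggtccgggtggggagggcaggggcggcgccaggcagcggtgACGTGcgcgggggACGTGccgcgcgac
Ldhb: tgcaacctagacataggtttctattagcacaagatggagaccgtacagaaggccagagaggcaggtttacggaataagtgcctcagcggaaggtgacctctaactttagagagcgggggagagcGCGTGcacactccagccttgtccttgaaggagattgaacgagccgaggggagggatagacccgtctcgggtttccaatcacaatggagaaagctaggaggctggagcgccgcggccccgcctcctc
Hk2 had 2 such stretches, Ldha had 3, Slc16a3 had 2 and Ldhb had 1. Among the other members higher at both ages, Hk3, Pfkfb3 and Eno1 had 1, Gapdh and Pgk1 had 2 and Pgam1 had 3. Among the others lower at both ages, Hk1 and Eno2 had 0, Pfkm, Pfkfb2, Aldoc and Pdk2 had 1 and Pdhb had 2. Pdk3, lower in young mice only, had 4, and Slc16a1, lower in middle-aged mice only, had 3. Pfkp and Pdha1, not called at either age, had 3 each. A link between the number of stretches and the direction was not tested. The table of promoters matched 32 of the 34 members, 12 of which have 2 to 4 windows there, and the nearest one was read. Of these 32 windows, 26 (81.2%) held at least 1 match, against 53.1% of 14746 windows of the genes tested here and 38.6% of all 32851 windows. Among members that were higher after injury at both ages, 9 of 9 matched windows held the core, and among those lower at both ages 6 of 8 did. The windows of Hk1, Eno2, Pkm, Gpi1, Aldoa and Tpi1 had none. Over all 51 windows of the members, 76.5% held a match, and only Gpi1, Tpi1 and Eno2 had none in any window. A match describes letters only, and nothing about binding was measured.

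The libraries held 9834447 to 12807437 counts, so that 3 counts, the level taken as the floor of detection, were worth 0.234 to 0.305 CPM (counts per 1000000 counts of a library). Levels below are CPM after scaling by edgeR's TMM factors. No molecular identifiers are described for these reads, so intervals and floors cover counting error only. The tissue held the cells its label names: Mbp, a myelin gene, was at a mean of 30697 CPM in young naïve libraries. After injury all 7 oligodendrocyte markers fell, to a summed 18263 to 20271 CPM in young and 7935 to 12454 CPM in middle-aged lesions from 86793 to 102081 and 53060 to 60343 CPM in naïve tissue. All 6 pan-myeloid markers rose, from 71.8 to 102 and 109.7 to 147 CPM to 1373 to 1394 and 1461 to 1950 CPM. Fewer cells of a type and less RNA per cell cannot be told apart in such samples. In the library labelled young injured replicate 1, the skeletal muscle markers Acta1, Ckm and Myh4 had 376, 90 and 601 counts, against at most 4 in any other library. Middle-aged naïve replicate 2 correlated least with the other libraries of its group. Injury results of the members that change without these 2 libraries are given with and without them. For age this was done only for part of the members.

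Injury changed most of the 34 genes, as it did most genes tested, in both directions, in young and in middle-aged mice. In young mice 23 members passed the test, 13 higher and 10 lower (67.6% of members). Across all 15866 genes tested, 54.6% passed, 28.3% higher and 26.3% lower. In middle-aged mice 22 members passed, 12 higher and 10 lower (64.7%), against 58.5% of all genes, 29.2% higher and 29.3% lower. Members called higher were 38.2% in young and 35.3% in middle-aged mice, and members called lower were 29.4% at each age. The share lower in middle-aged mice was thus at the background. The other shares were above it by margins that were not tested, and members were not matched to other genes by level. The median log2 fold change of the members was 0.28 in young and 0.31 in middle-aged mice, against 0.00 and -0.03 over all genes. Members higher at both ages were Hk2, Hk3, Pfkfb3, Gapdh, Pgk1, Pgam1, Eno1, Ldha, Slc16a3 and Slc16a7. Members lower at both ages were Hk1, Pfkm, Pfkfb2, Aldoc, Eno2, Ldhb, Pdk2 and Pdhb. No member passed in opposite directions at the 2 ages. All 10 of the first group and 6 of the second (all but Hk1 and Pfkfb2) passed at both ages in each of 21 fits. The shares of all genes that passed the same way at both ages, or in every fit, are not given here. Agreement between ages and fits is therefore not read as a trait of the members. Calls came from edgeR's quasi-likelihood test at a Benjamini-Hochberg adjusted p under 0.05 over all genes tested. Scaling by library totals alone shifted the median of all genes by 0.20 on the log2 scale in young mice and gave 17 members higher and 7 lower there (70.8% of calls higher, against 56.5% with TMM).

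**Figure D1:**
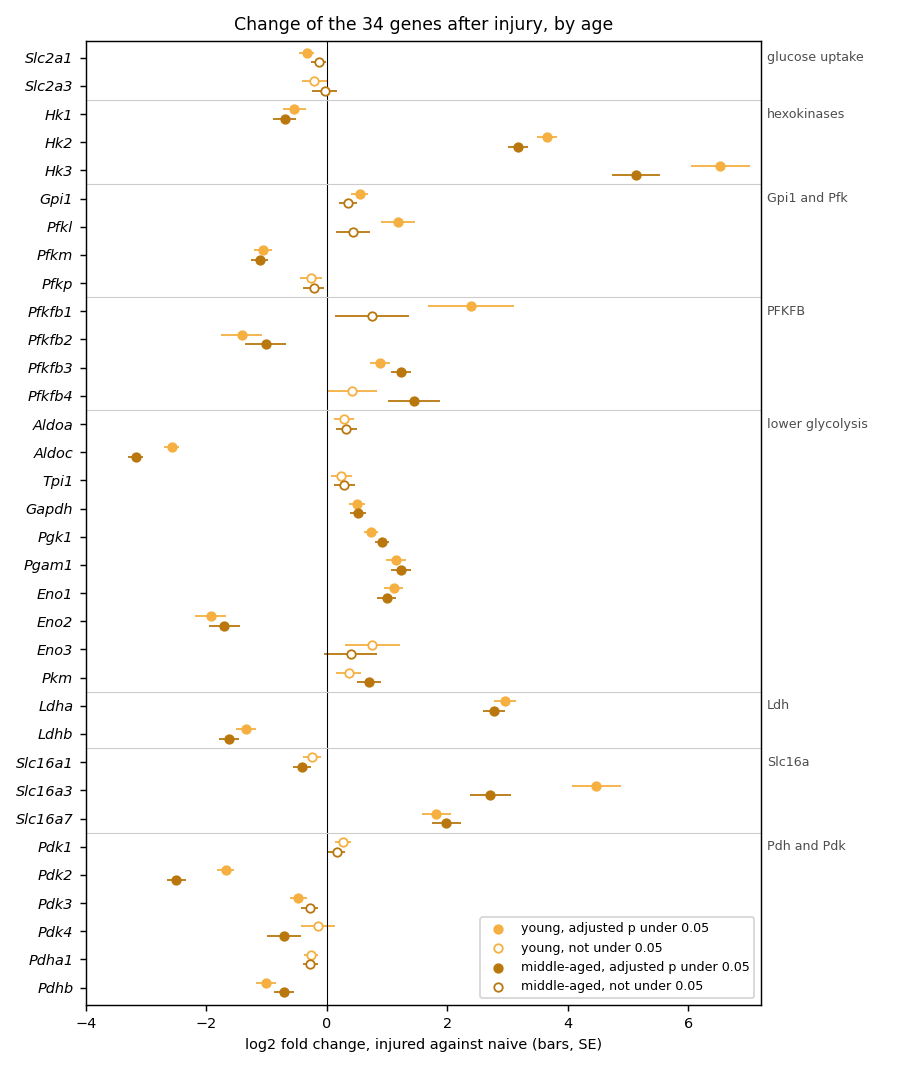
Log2 fold change of each of the 34 genes, injured against naïve, in young (light) and middle-aged (dark) mice, grouped by role; points are edgeR estimates, bars the SE, and filled points have an adjusted p under 0.05. Hk3, Slc16a3, Hk2 and Ldha lie farthest to the right and Aldoc, Pdk2 and Eno2 farthest to the left.

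Glucose entry changed little, whereas the hexokinases, which trap glucose as glucose 6-phosphate, changed places. Slc2a1 (GLUT1, the transporter of barrier endothelium and glia) was at 126 ± 5.65 CPM (SD, n = 3) in young naïve and 99.8 ± 5.48 CPM in young injured libraries, a log2 change of -0.34 ± 0.12 (SE), adjusted p = 0.0322. In middle-aged mice its change was -0.13 ± 0.12 (SE), adjusted p = 0.368. Slc2a3 (GLUT3, the neuronal transporter) did not pass at either age (-0.21 ± 0.21 and -0.03 ± 0.21). The small Slc2a1 change lost its call without young naïve replicate 1 or 2 or young injured replicate 1 or 2 (adjusted p of 0.0971, 0.0684, 0.0889 and 0.119), without both libraries that stand apart (0.0637), with no filter on low counts (0.0845) and with library totals (0.380).

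Hk1, the hexokinase of resting brain tissue, was at 44.2, 42.7 and 45.9 CPM in the young naïve libraries and at 29.4, 29.8 and 32.2 CPM in the young injured ones. Middle-aged libraries held 36.4, 71.3 and 46.8 CPM in naïve and 29.5, 33.3 and 32.1 CPM in injured tissue. At each age every injured library lay below every naïve one. The log2 changes were -0.54 ± 0.19 (SE), adjusted p = 0.0280, in young and -0.70 ± 0.19 (SE), adjusted p = 0.00599, in middle-aged mice. In young mice the adjusted p rose above 0.05 when any 1 of the 6 young libraries was left out (0.0508 to 0.0842) and with library totals (0.126). Hk2, the inducible isoform, was at 6.10, 5.62 and 6.45 CPM in young naïve and 78.5, 67.5 and 83.4 CPM in young injured libraries. It was at 9.60, 7.24 and 8.80 CPM in middle-aged naïve and 78.4, 86.3 and 66.4 CPM in middle-aged injured libraries. The rise was 12.6-fold in young (3.66 ± 0.17 (SE), adjusted p = 5.54e-10) and 8.99-fold in middle-aged mice (3.17 ± 0.16 (SE), adjusted p = 1.51e-09), and the groups did not overlap.

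Hk3, a hexokinase found mainly in myeloid cells, was close to the floor in naïve tissue. It had 2, 6 and 4 counts in the young naïve libraries and 8, 35 and 18 counts in the middle-aged naïve ones, the highest of these in replicate 2. Injured libraries had 498, 486 and 463 counts in young and 961, 991 and 494 counts in middle-aged mice. The fitted log2 changes were 6.53 ± 0.49 (SE), adjusted p = 6.61e-08, in young and 5.13 ± 0.40 (SE), adjusted p = 7.70e-08, in middle-aged mice. Without middle-aged naïve replicate 2 the middle-aged value was 5.89 (adjusted p = 7.10e-09). Taken from summed counts, the ratio in young mice was 109 (exact 95% interval 62.1 to 211, counting error only). Pan-myeloid markers rose beside it, as given above, and their part in the rise of Hk2 and Hk3 was not tested.

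The next steps commit the sugar to glycolysis. Gpi1, which converts glucose 6-phosphate to fructose 6-phosphate, was at 98.2 ± 5.13 CPM in young naïve and 143 ± 11.0 CPM in young injured libraries (0.54 ± 0.14 (SE), adjusted p = 0.00544). In middle-aged mice its change was 0.35 ± 0.14 (SE), adjusted p = 0.0501, which fell under 0.05 in 9 of 20 other fits, among them those without middle-aged naïve replicate 2 (0.0130) or middle-aged injured replicate 3 (0.0283). The 3 phosphofructokinases moved apart. Pfkm, the muscle-type subunit, fell 2.08-fold in young (-1.06 ± 0.15 (SE), adjusted p = 2.45e-05) and 2.17-fold in middle-aged mice (-1.12 ± 0.15 (SE), adjusted p = 1.37e-05). Its levels were 134, 109.5 and 95.6 CPM in naïve and 49.8, 61.6 and 51.2 CPM in injured young libraries, and 95.4, 105 and 108 against 41.7, 48.7 and 52.2 CPM in middle-aged ones. Naïve and injured libraries did not overlap at either age.

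Pfkl, the liver-type subunit, was at 21.7, 16.95 and 20.9 CPM in young naïve and 40.7, 47.0 and 46.8 CPM in young injured libraries, a 2.26-fold rise (1.18 ± 0.28 (SE), adjusted p = 0.00275). In middle-aged mice it was at 23.0, 56.2 and 24.2 CPM in naïve and 44.6, 56.3 and 38.3 CPM in injured libraries, and replicate 2 of the naïve group lay within the injured range. The change there was 0.43 ± 0.28 (SE), adjusted p = 0.195, and without that library 0.98 (adjusted p = 0.000239). Pfkp, the platelet-type subunit, was not called at either age (-0.26 ± 0.18 and -0.22 ± 0.18), but passed in young mice without young naïve replicate 3 (-0.47 (adjusted p = 0.00833)).

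The PFKFB enzymes make and remove fructose 2,6-bisphosphate, the strongest activator of phosphofructokinase. Pfkfb3, the form with the highest kinase activity, rose 1.84-fold in young (0.88 ± 0.17 (SE), adjusted p = 0.000432) and 2.34-fold in middle-aged mice (1.23 ± 0.17 (SE), adjusted p = 1.99e-05). Its levels were 56.1, 53.0 and 37.5 CPM in young naïve and 87.4, 82.2 and 100.1 CPM in young injured libraries, and 47.5, 34.3 and 48.3 against 107, 99.1 and 98.8 CPM in middle-aged mice. Pfkfb2 moved the other way, from 38.0 ± 4.02 to 14.3 ± 1.38 CPM in young mice (-1.41 ± 0.34 (SE), adjusted p = 0.00257).

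In middle-aged naïve libraries Pfkfb2 was at 42.5, 10.7 and 33.5 CPM, with replicate 2 below all injured libraries (14.4, 12.78 and 15.7 CPM). The change was -1.02 ± 0.34 (SE), adjusted p = 0.0181, and the call was lost without middle-aged naïve replicate 1 or 3 or middle-aged injured replicate 2 (adjusted p of 0.111, 0.0581 and 0.0640). Exons of Pfkfb2 overlap those of Yod1 and Gm29427 over 1416 bases, so its counts are uncertain. Overlaps of exons with other genes also spanned 767 bases in Pkm, 748 in Pfkp, 741 in Gpi1, 603 in Pdha1 and 359 in Pfkm. In Pkm and Pfkm an overlapping gene lies on the same strand, and these counts are uncertain too. Pfkfb4 passed in middle-aged mice (1.45 ± 0.43 (SE), adjusted p = 0.00925). In young mice, where naïve libraries were spread over 3.37, 7.71 and 16.5 CPM, its change was 0.42 ± 0.41 (SE), adjusted p = 0.412, and 1.14 (adjusted p = 0.0174) without young naïve replicate 3. Pfkfb1, the liver form, had 1, 3 and 4 counts in young naïve libraries and 24, 13 and 19 in young injured ones, a ratio of summed counts of 6.31 (exact 95% interval 2.99 to 15.3). It passed in young mice (2.39 ± 0.71 (SE), adjusted p = 0.0109), not without young naïve replicate 1 (0.0536), and in middle-aged mice its change was 0.75 ± 0.62 (SE), adjusted p = 0.318.

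**Figure D2:**
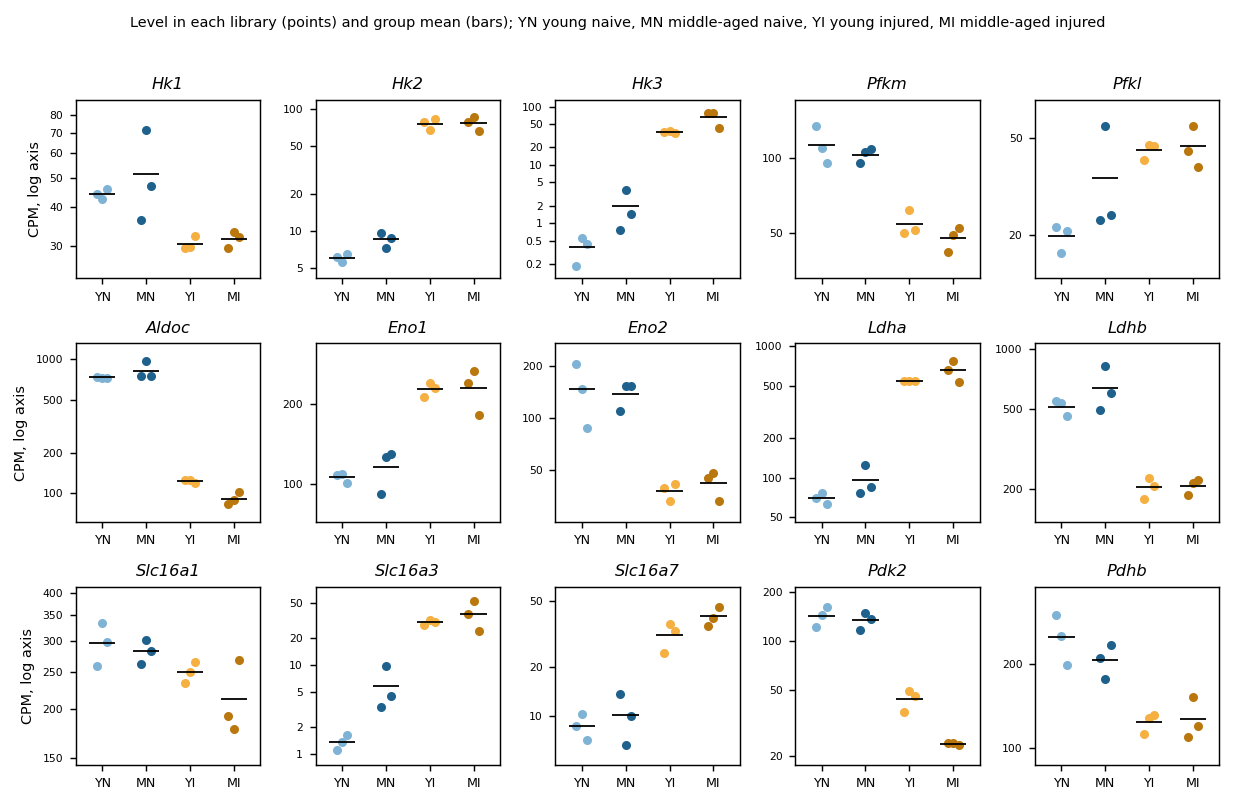
Level of 15 members in each of the 12 libraries, in TMM-scaled CPM on a log axis; each point is a library and each bar a group mean. Hk2, Hk3, Ldha, Slc16a3 and Slc16a7 are higher in every injured library than in any naïve one, and Aldoc, Eno2, Ldhb, Pdk2 and Pdhb are lower.

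In lower glycolysis the enzymes found in all cells rose modestly or were not called, and the isoforms typical of astrocytes and neurons fell. Aldoc, the brain aldolase and an astrocyte-enriched gene, was at 745, 732 and 723 CPM in young naïve and 125, 126 and 119 CPM in young injured libraries. In the older mice Aldoc was at 754, 969.6 and 746 CPM in naïve and 83.1, 88.6 and 102 CPM in injured tissue. It fell 5.95-fold in young (-2.57 ± 0.13 (SE), adjusted p = 1.01e-09) and 9.04-fold in middle-aged mice (-3.18 ± 0.13 (SE), adjusted p = 1.97e-10), with no overlap. Of 5 astrocyte markers 4 fell at each age, from a summed 8326 to 10484 CPM in young naïve and 8463 to 9248 CPM in middle-aged naïve libraries to 4454 to 5138 CPM and 3267 to 4550 CPM in lesions, and their part in the fall of Aldoc was not tested. Aldoa, the ubiquitous aldolase, was not called (0.29 ± 0.17 (SE), adjusted p = 0.162, in young and 0.32 ± 0.17 (SE), adjusted p = 0.1104, in middle-aged mice), though it passed in middle-aged mice without naïve replicate 2 (0.0398) or injured replicate 3 (0.0168), and at both ages with library totals (0.0216 and 0.0327).

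Eno2, the neuronal enolase, was at 204, 147 and 87.1 CPM in young naïve and 39.6, 33.5 and 41.9 CPM in young injured libraries. In middle-aged mice it was at 109, 153 and 152 CPM in naïve and 45.4, 48.5 and 33.4 CPM in injured libraries. All injured libraries lay below all naïve ones, and the fall was 3.81-fold (-1.93 ± 0.25 (SE), adjusted p = 1.70e-05) in young and 3.25-fold (-1.70 ± 0.25 (SE), adjusted p = 4.61e-05) in middle-aged mice. The 5 neuron markers summed to 690.1 to 2002 CPM in naïve and 285 to 491 CPM in injured young libraries, and to 1179 to 1251 and 381 to 462 CPM in middle-aged ones, and 3 of 5 fell at each age, while 1 rose in middle-aged mice. Their part in the fall of Eno2 was not tested. Eno1, the ubiquitous enolase, rose in young mice from 106 ± 4.46 to 228 ± 13.6 CPM (1.11 ± 0.16 (SE), adjusted p = 3.10e-05), and in older ones from 116 ± 21.2 to 230.1 ± 44.1 CPM (0.99 ± 0.16 (SE), adjusted p = 7.51e-05).

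Eno3, the muscle enolase, was low throughout and not called (0.75 ± 0.45 (SE), adjusted p = 0.174, in young mice). Its highest level among all libraries, 4.04 CPM, was in young injured replicate 1, the library with muscle RNA, against 1.55 and 2.11 CPM in the other young injured libraries. Pgam1, which moves the phosphate of phosphoglycerate, rose 2.21-fold in young (1.14 ± 0.16 (SE), adjusted p = 3.77e-05) and 2.34-fold in middle-aged mice (1.23 ± 0.16 (SE), adjusted p = 1.70e-05). Pgk1, the first ATP-forming enzyme, rose 1.66-fold (0.73 ± 0.12 (SE), adjusted p = 8.76e-05) and 1.88-fold (0.91 ± 0.12 (SE), adjusted p = 1.03e-05).

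Gapdh, often used as a reference gene, was at 193, 179 and 170.4 CPM in young naïve and 245, 261 and 263 CPM in young injured libraries. Its rise was 1.42-fold in young (0.50 ± 0.13 (SE), adjusted p = 0.00486) and 1.43-fold in middle-aged mice (0.51 ± 0.13 (SE), adjusted p = 0.00406). Pkm, pyruvate kinase, passed in middle-aged (0.70 ± 0.20 (SE), adjusted p = 0.00903) and not in young mice (0.36 ± 0.20 (SE), adjusted p = 0.149), and gene counts do not separate its M1 and M2 forms. The Pkm calls turned on single libraries, with an adjusted p of 0.0599 in middle-aged mice without injured replicate 2 and 0.0485 in young mice without naïve replicate 1. Tpi1, triose phosphate isomerase, was not called (0.24 ± 0.17 and 0.29 ± 0.17), except in middle-aged mice without naïve replicate 2 (0.0385) or without both libraries that stand apart (0.0419), and in young mice with library totals (0.0375). Several of these genes have near-identical copies or pseudogenes: 54.7% of the 31-base words in Pgk1 transcripts, 37.1% in Pgam1, 34.7% in Pkm, 33.0% in Ldhb, 28.5% in Eno1 and 28.1% in Gapdh also occur in other genes. How reads of such words were counted is not stated, so these counts are uncertain, and the shares are not shares of miscounted reads. The pseudogenes that share words with Gapdh had counts worth 13.7% of its own, and those of Pgk1, Pgam1, Pkm, Ldhb and Eno1 at most 0.13%. Among other members this figure was 32.7% for Pfkfb2, 31.8% for Pfkl, 22.5% for Slc2a3 and 20.3% for Slc16a7. It was 12.2% for Pdhb, 10.1% for Eno2 and 5.02% for Ldha. Shared words made up 18.9% in Pfkfb2, 17.9% in Pdhb and 19.6% in Ldha, and at most 2.48% in Pfkl, Slc2a3, Slc16a7 and Eno2.

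The lactate dehydrogenases exchanged ranks. Ldha (GRCm38 chr7:46841475-46855627, plus strand) encodes the subunit that favours lactate formation and Ldhb (chr6:142490249-142507957, minus strand) the one that favours pyruvate. Ldha was at 70.2, 76.0 and 63.1 CPM in young naïve and 539, 539 and 541 CPM in young injured libraries. Middle-aged libraries held 76.8, 126 and 85.2 CPM in naïve and 656, 769 and 536 CPM in injured tissue. It rose 7.74-fold in young (2.95 ± 0.18 (SE), adjusted p = 9.74e-09) and 6.82-fold in middle-aged mice (2.77 ± 0.18 (SE), adjusted p = 1.38e-08).

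Ldhb was at 549, 535 and 461 CPM in young naïve and 178, 228 and 205 CPM in young injured libraries, and at 497, 822 and 600.1 against 187, 215 and 221 CPM in middle-aged mice. It fell 2.53-fold in young (-1.34 ± 0.17 (SE), adjusted p = 9.33e-06) and 3.08-fold in middle-aged mice (-1.62 ± 0.17 (SE), adjusted p = 1.30e-06). For both genes no injured library overlapped a naïve one. Per kilobase of the principal transcript, Ldhb was the highest of the 34 genes in naïve tissue (395 ± 36.3 CPM per kilobase in young mice) and Ldha the highest in lesions (306 ± 0.776 CPM per kilobase in young mice). The next gene in lesions, Aldoa, was at 276 ± 15.5 CPM per kilobase in young and 325 ± 81.8 in middle-aged mice, the latter within 1 SD of Ldha (370.1 ± 66.0). With the union of all exons as length, Ldhb was still the highest in naïve tissue at both ages, but Pgam1 led in lesions, at 246 ± 4.12 against 163 ± 0.414 CPM per kilobase for Ldha in young and 284 ± 10.7 against 197 ± 35.2 in middle-aged mice.

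Among the monocarboxylate transporters, the low-abundance members rose and the main one did not. Slc16a1 (MCT1, the transporter of oligodendrocytes and endothelium) was at 259, 335 and 298 CPM in young naïve and 234, 249 and 266 CPM in young injured libraries (-0.25 ± 0.15 (SE), adjusted p = 0.165). In middle-aged mice it was at 262, 302 and 282 CPM in naïve and 192, 178 and 267 CPM in injured libraries (-0.41 ± 0.15 (SE), adjusted p = 0.0282), and the groups overlapped. That call was lost without middle-aged naïve replicate 2 or 3 or injured replicate 1 or 2 (adjusted p of 0.0685, 0.0574, 0.111 and 0.125), with library totals (0.0893) and without both libraries that stand apart (0.0806). Slc16a3 (MCT4, the low-affinity lactate exporter, at chr11:120948480-120960868) was at 1.09, 1.36 and 1.61 CPM in young naïve and 28.1, 31.7 and 30.5 CPM in young injured libraries. In the older mice Slc16a3 was at 3.36, 9.65 and 4.48 CPM in naïve and 37.0, 52.3 and 24.3 CPM in injured tissue. The rise was 22.2-fold (4.47 ± 0.40 (SE), adjusted p = 3.87e-07) in young and 6.55-fold (2.71 ± 0.34 (SE), adjusted p = 9.74e-06) in middle-aged mice, with no overlap. Slc16a7 (MCT2, the high-affinity transporter of neurons) rose 3.52-fold in young (1.82 ± 0.25 (SE), adjusted p = 2.18e-05) and 3.96-fold in middle-aged mice (1.98 ± 0.24 (SE), adjusted p = 7.65e-06), from 8.76 ± 1.57 to 30.98 ± 6.07 CPM and from 10.1 ± 3.46 to 40.3 ± 5.53 CPM. The part of the neuron markers in it was not tested.

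At the mitochondrial entry, the beta subunit of pyruvate dehydrogenase and the leading kinase fell, and no member of this group rose. Pdk2, the kinase with the highest level per kilobase in naïve tissue, which switches pyruvate dehydrogenase off, was at 121, 143 and 162 CPM in young naïve and 37.0, 49.5 and 46.5 CPM in young injured libraries. In middle-aged mice it was at 117, 148 and 137 CPM in naïve and 23.8, 24.0 and 23.3 CPM in injured libraries. It fell 3.21-fold in young (-1.68 ± 0.15 (SE), adjusted p = 2.82e-07) and 5.65-fold in middle-aged mice (-2.50 ± 0.15 (SE), adjusted p = 7.13e-09). Pdhb, the beta subunit of the E1 enzyme, fell 2.03-fold (-1.02 ± 0.17 (SE), adjusted p = 0.000121) and 1.63-fold (-0.71 ± 0.17 (SE), adjusted p = 0.00208). It was at 301, 252 and 199 CPM in young naïve and 112, 127 and 131 CPM in young injured libraries.

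Pdha1, the alpha subunit, was not called (-0.26 ± 0.12 (SE), adjusted p = 0.0815, in young and -0.28 ± 0.12 (SE), adjusted p = 0.0637, in middle-aged mice), and passed without young naïve replicate 3 in both ages (0.00850 and 0.0268) and without middle-aged naïve replicate 2 in middle-aged mice (0.0400). Pdk1, a known target of hypoxia-inducible factors, was not called (0.27 ± 0.14 (SE), adjusted p = 0.114, and 0.16 ± 0.14 (SE), adjusted p = 0.336), though it passed in young mice without naïve replicate 3 (0.0231) or with library totals (0.0117). Pdk3 fell in young mice (-0.47 ± 0.14 (SE), adjusted p = 0.0103), not without young naïve replicate 3 (0.0510) or with library totals (0.112), and was at -0.29 ± 0.14 (SE), adjusted p = 0.0964, in middle-aged mice. Pdk4, the kinase of fasting and fatty acid use, fell in middle-aged mice (-0.71 ± 0.28 (SE), adjusted p = 0.0387), and was at -0.15 ± 0.28 in young mice. The Pdk4 call was lost without middle-aged naïve replicate 1 (0.227), middle-aged injured replicate 1 or 2 (0.127 and 0.149), any 1 young injured library (0.0501 to 0.0516), and with a replicate block (0.0514).

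Isoform shares put these changes on a common scale. Within a family, CPM per kilobase of the principal transcript was divided by the family's sum in the same library, so that library scaling drops out. In hexokinases, Hk1 held 90.4% ± 0.336 (SD, n = 3) of the family in young naïve and 23.9% ± 0.792 in young injured libraries. Hk2 held 8.64% ± 0.292 and 41.9% ± 2.84, and Hk3 0.945% ± 0.468 and 34.2% ± 2.68. In middle-aged lesions Hk3 held 47.6% ± 7.24 and Hk2 32.8% ± 2.74, against 3.56% ± 1.72 and 10.9% ± 4.49 in naïve tissue. The family sum rose from 12.7 ± 0.48 to 33.1 ± 1.32 CPM per kilobase in young mice.

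The share of Ldha was 9.10% ± 0.445 in naïve and 66.3% ± 2.78 in injured young libraries, and 9.96% ± 0.408 and 69.6% ± 4.75 in middle-aged ones. The sum of both dehydrogenases was 435 ± 39.3 in young naïve and 462 ± 19.1 CPM per kilobase in young injured libraries. It was 545 ± 142 in middle-aged naïve and 529 ± 64.7 CPM per kilobase in middle-aged injured libraries, ranges that overlap at each age. Aldoa went from 46.2% ± 1.72 to 86.2% ± 1.04 and Eno1 from 50.9% ± 9.26 to 88.0% ± 1.98 in young mice, with 90.5% ± 2.93 and 86.9% ± 0.678 in middle-aged lesions. With the union of all exons as length, Eno1 held 39.6% in young naïve libraries, so which enolase led in naïve tissue depends on the length used. The sizes of the other shares depend on it too. In young lesions that length gave 163 CPM per kilobase for Ldha and 130 for Ldhb, and 3.57 for Hk1, 12.8 for Hk2 and 9.88 for Hk3. Slc16a1 kept the largest share of its family, at 98.4% ± 0.128 in naïve and 85.3% ± 0.938 in injured libraries of young mice, with 78.9% ± 7.03 in middle-aged lesions. Pdk2 dropped from 54.8% ± 1.65 to 27.8% ± 2.71 in young mice and held 17.8% ± 1.52 in middle-aged lesions, against 54.4% ± 3.53 in naïve tissue, while Pdk1, which was not called itself, came to hold 46.3% ± 1.56 and 55.9% ± 3.25.

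**Figure D3:**
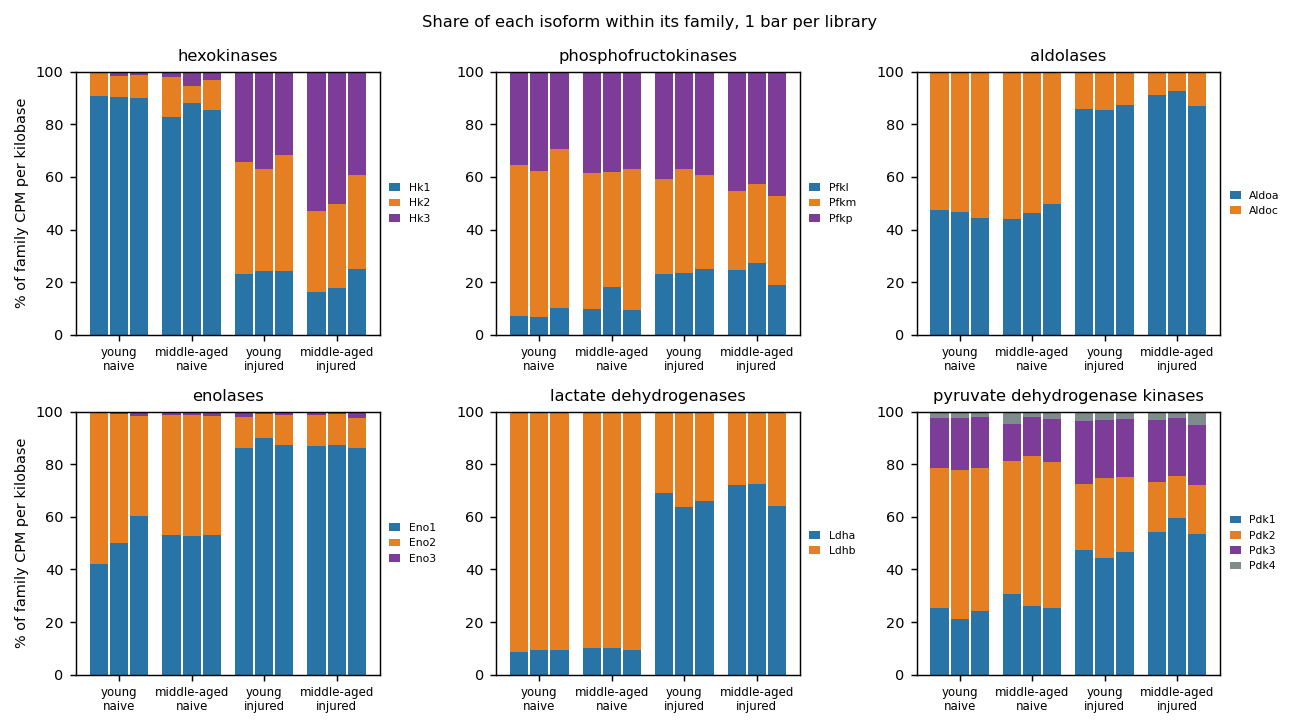
Share of each isoform in its family's CPM per kilobase of the principal transcript, in percent, with 1 stacked bar per library and 3 bars per group, for 6 families. Ldha is near 9% in young naïve libraries and above 60% in every lesion, and Hk1 falls from above 80% in every naïve library to below 30% in every lesion.

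The ratio of 2 isoforms within a library depends little on library scaling, and it was tested for 16 pairs with an exact permutation test within ages (400 arrangements, two-sided). For injury, 15 of 16 ratios had an exact permutation p = 0.005, the smallest this design can give (adjusted p = 0.00533 over 16 pairs), and were shifted the same way in all 6 lesions against naïve libraries of their age. The shift was 4.30 in young and 4.38 in middle-aged mice for log2 Ldha/Ldhb, 4.17 and 3.81 for Hk2/Hk1, and 6.87 and 5.89 for Hk3/Hk1. It was 4.64 and 3.19 for Slc16a3/Slc16a1, 2.96 and 2.69 for Eno1/Eno2, 2.86 and 3.48 for Aldoa/Aldoc, and 2.23 and 1.66 for Pfkl/Pfkm. The 2 glucose transporters were the exception, with shifts of 0.17 and 0.11 for Slc2a3/Slc2a1 (exact permutation p = 0.435). Within 1 age, 3 against 3 libraries in an exact test cannot go below p = 0.1. Several pairs share a denominator, such as Pdk2, Hk1 or Pfkm, so the shifts are not independent of each other. The denominators Hk1, Pfkm, Pfkfb2, Aldoc, Eno2, Ldhb and Pdk2 were themselves called lower at both ages in the same counts. These shifts therefore restate those calls in part and are not separate evidence. A ratio also rises when only its denominator falls, and Aldoa, Pdk1, Pdk3, Pdk4, Pfkp and Eno3 were not called higher at either age. The share of other gene pairs that shift as far is not given here, while 54.6% of all genes passed for injury in young and 58.5% in middle-aged mice.

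Age alone moved few of these genes. In naïve tissue 1 of 34 members passed, Slc16a3, against 3.8% of all genes. It was 4.26-fold higher in middle-aged mice (2.09 ± 0.42 (SE), adjusted p = 0.0132), with 12, 15 and 15 counts in young and 35, 92 and 56 counts in middle-aged naïve libraries. All 3 middle-aged libraries lay above all 3 young ones, with replicate 2 the highest. The difference was 1.54 (adjusted p = 0.0335) without that replicate, and the call was lost without young naïve replicate 1 or 2 (0.0643 and 0.0588) and when only the 6 naïve libraries were fitted (0.134). Pan-myeloid markers were also higher in middle-aged naïve tissue (4 of 6 passed, with the summed levels given above), and their part in this was not tested. Hk3 was at 2.29 ± 0.62 (SE), adjusted p = 0.0564, a ratio of summed counts of 5.01 (exact 95% interval 2.67 to 10.2). Without middle-aged naïve replicate 2, 26 against 12 counts gave a ratio of 3.07 (1.497 to 6.69). At an unadjusted p under 0.05, 6 members differed, namely Hk2, Hk3, Pfkl, Ldha and Slc16a3, which were higher in middle-aged tissue, and Pdk3, which was lower. That is 6 of 34, against 18.3% of all genes at the same unadjusted p.

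In lesions 1 of 34 members passed for age, Pdk2, against 1.15% of all genes. It was 1.87-fold lower in middle-aged lesions (-0.90 ± 0.15 (SE), adjusted p = 0.00921), with the 3 middle-aged libraries between 23.3 and 24.0 CPM and the young ones between 37.0 and 49.5 CPM. The call was lost without young injured replicate 2 or 3 or middle-aged injured replicate 1 or 2 (adjusted p of 0.0642, 0.0662, 0.0602 and 0.0658). Oligodendrocyte markers were lower in middle-aged than in young lesions for 6 of 7 genes, and their part in the Pdk2 difference was not tested. Hk3 was at 0.89 ± 0.31 (SE), adjusted p = 0.261, and Aldoc at -0.44 ± 0.12 (SE), adjusted p = 0.118, in the same comparison. Of 16 isoform ratios, Hk3/Hk1 and Pfkp/Pfkm were higher in middle-aged libraries in both conditions (exact permutation p = 0.005, adjusted p = 0.04 over 16 pairs). The shifts were 1.75 in naïve tissue and 0.77 in lesions for Hk3/Hk1, and 0.38 and 0.46 for Pfkp/Pfkm. The share of other gene pairs that shift as far with age is not given here. None of Hk3, Hk1, Pfkp and Pfkm passed for age as a gene, and Hk3 had only 2, 6 and 4 counts in young naïve libraries. With 1 library left out the test has 200 arrangements, and the exact permutation p of Hk3/Hk1 and Pfkp/Pfkm was 0.005 or 0.01. Their adjusted p was then 0.08 without young naïve replicate 3, middle-aged naïve replicate 1 or 3, or any 1 young injured library, and 0.02 to 0.04 otherwise. With all 12 libraries, middle-aged and young libraries of a condition did not overlap in either ratio, which leaving a library out cannot change. In naïve tissue the log2 Pfkp/Pfkm ratios nearly met, at -0.026 in the highest young and -0.006 in the lowest middle-aged library. With 1 library left out, the mean shift was 1.08 to 1.42 for Hk3/Hk1 and 0.35 to 0.48 for Pfkp/Pfkm.

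The injury effect itself did not pass as different between ages for any member with edgeR (0 of 34, against 0.139% of all genes), while 4 of 34 had an unadjusted p under 0.05 (Hk2, Aldoc, Slc16a3 and Pdk2), against 9.92% of all genes, and DESeq2's Wald test called 1 (Pdk2). The differences, middle-aged minus young on the log2 scale, were -0.82 ± 0.20 (SE), adjusted p = 0.145, for Pdk2, -0.60 ± 0.17 (SE), adjusted p = 0.194, for Aldoc, -1.76 ± 0.52 (SE), adjusted p = 0.213, for Slc16a3 and -0.49 ± 0.22 (SE), adjusted p = 0.486, for Hk2. For Ldha it was -0.18 ± 0.24.

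The pathways next to glycolysis were described with 7 lists, of whose 90 genes 80 passed the filter on low counts and were tested in the same fit. Their counts stand against 28.3% of all genes higher and 26.3% lower in young mice, and 29.2% and 29.3% in middle-aged mice. In the pentose phosphate pathway, which makes NADPH, 5 of 8 genes passed at each age, 3 higher and 2 lower. H6pd, its form in the endoplasmic reticulum, rose 10.4-fold in young and 7.46-fold in middle-aged mice (3.38 ± 0.32 (SE), adjusted p = 6.39e-07, and 2.90 ± 0.30 (SE), adjusted p = 1.42e-06). Pgd, the second NADPH-forming enzyme, rose 3.72-fold and 3.57-fold (1.90 ± 0.15 and 1.84 ± 0.15), and Rpe, a pentose epimerase, 1.52-fold and 1.82-fold. Tkt and Taldo1, of the non-oxidative branch, fell at both ages (log2 -0.46 ± 0.16 and -0.73 ± 0.18 in young mice). The median of the list was 0.46 in young and 0.35 in middle-aged mice, against 0.00 and -0.03 over all genes.

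In the tricarboxylic acid cycle 9 of 13 genes fell in young and 8 in middle-aged mice, and none rose. The medians were -0.53 and -0.49. Sucla2, a succinyl-CoA synthetase subunit, was at -1.02 ± 0.17 and -1.10 ± 0.17, and Sdha, of succinate dehydrogenase, at -0.67 ± 0.16 and -1.05 ± 0.16. Of 13 tested carriers and partners of pyruvate and lactate, 1 rose and 7 fell in young mice, and 3 rose and 5 fell in middle-aged mice. Mpc1, a subunit of the mitochondrial pyruvate carrier, fell 1.92-fold and 2.04-fold, and Pcx, pyruvate carboxylase of astrocytes, 3.18-fold and 3.17-fold. Slc16a6, another monocarboxylate transporter, rose 3.07-fold and 3.18-fold (1.62 ± 0.21 (SE), adjusted p = 1.28e-05, and 1.67 ± 0.21 (SE), adjusted p = 7.81e-06).

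Of 14 hypoxia factors and classical targets outside glycolysis, 7 rose and 5 fell at each age. Hif1a, the oxygen-regulated factor, was at 208, 199.9 and 194 CPM in young naïve and 543, 525 and 611 CPM in young injured libraries. It rose 2.79-fold (1.48 ± 0.11 (SE), adjusted p = 6.81e-08) and, in middle-aged mice, 4.12-fold (2.04 ± 0.11 (SE), adjusted p = 3.10e-09). Car9, a carbonic anhydrase, had no count in any naïve library and 29, 24 and 42 counts in young and 36, 29 and 36 in middle-aged lesions, at least 8.41-fold and at least 9.99-fold higher against a floor of 3 counts per library. Ndrg1, a further listed target that is also high in oligodendrocytes, fell 3.24-fold and 5.85-fold. Of 13 tested genes of 21 in a list of further glycolysis and glucose transport genes, 1 rose and 3 fell in young mice, and 3 rose and 4 fell in middle-aged mice. Slc2a4, the insulin-regulated glucose transporter, fell at both ages (-1.56 ± 0.22 and -2.48 ± 0.24) and was lower in middle-aged than in young lesions (-1.11 ± 0.24 (SE), adjusted p = 0.0394), at 3.07, 3.35 and 4.49 against 6.09, 9.30 and 8.21 CPM. Slc2a6, a transporter of haematopoietic cells, rose 2.88-fold and 2.64-fold, and Bpgm, which makes 2,3-bisphosphoglycerate, fell 2.73-fold and 2.60-fold.

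**Figure D4:**
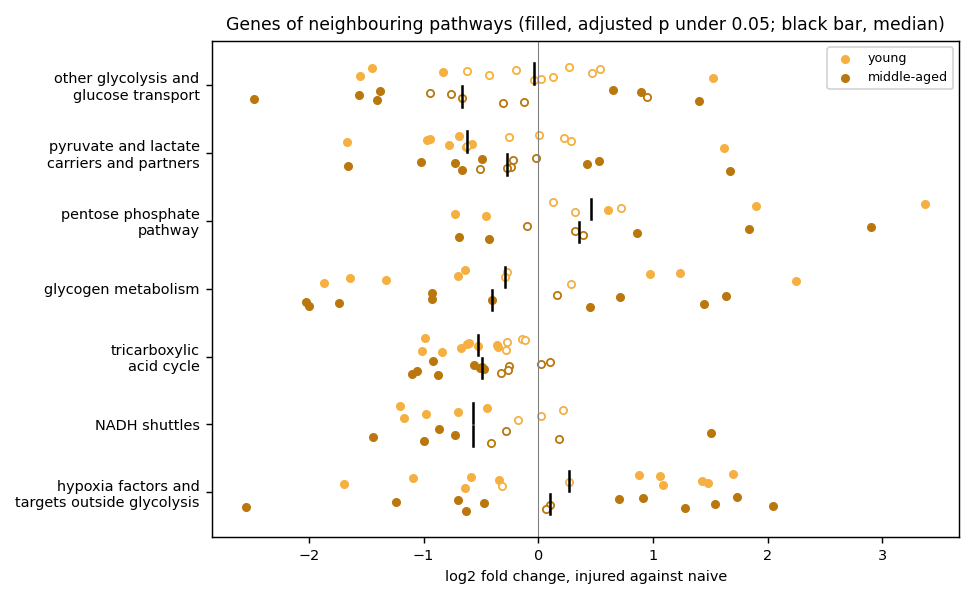
Log2 fold change after injury of the genes of 7 neighbouring lists in young (light) and middle-aged (dark) mice; filled points have an adjusted p under 0.05, black bars are list medians, and Car9, with no count in naïve libraries, is left out. No gene of the tricarboxylic acid cycle has a filled point above 0.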

How the data were processed

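The submitters' processing notes and methods name FastQC 0.11.4, TopHat2 2.0.10 with Bowtie 1.1.2 on GRCm38, and featureCounts. RNA was amplified at library building. The annotation release and strand setting are not given in the sources used here, so reads of overlapping antisense genes cannot be told apart. The deposited values are raw counts of reads per gene for 12 libraries (9834447 to 12807437 counts each), not normalized by the authors. Gene symbols and positions came from GENCODE vM21 (98% of 46078 identifiers carried a symbol), and promoter windows from RefSeq.

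From the counts, genes were filtered with edgeR 4.0.16 (filterByExpr, 15866 kept), scaled by TMM and tested with the quasi-likelihood test in R 4.3.3, in 1 fit over 4 groups with 5 contrasts and Benjamini-Hochberg adjustment over all genes tested. Each SE was obtained from the log2 change and its F statistic. All 34 members passed the filter. The steps were tested on simulated data. Isoform ratios used log2 of counts plus 1 and exact permutation tests (SciPy 1.17.1). Levels compared between genes were divided by the longest principal transcript. Named genes were all members, up to 3 genes of each neighbouring list called at both ages with the largest mean change, and any called for age. A gene that this rule names is not reported here. Other genes of those lists given by name, and the members singled out at an unadjusted p, were picked after their values were seen. Alternatives were RLE factors, library totals, other filters, DESeq2 1.42.0 (the study's tool), a replicate block, only the libraries compared, each library left out, and, chosen after seeing the data, both libraries that stand apart left out and exon union length. The members and lists were chosen with earlier results of these data known.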

Additional observations from a re-analysis of the deposited data

How the results depend on the processing

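Of the 18 members that passed in the same direction at both ages, 16 did so in all 21 fits, and the share of all genes that did so is not given here. Counts of members and of all genes passing for injury stayed within 1.5 times under each alternative; without both libraries that stand apart, 22 members passed in young and 24 in middle-aged mice. The small direction of Slc2a3 reversed in middle-aged mice with library totals (0.082) and without both libraries that stand apart (0.11), and with 1 library left out its log2 change spanned -0.39 to 0.10 (young) and -0.17 to 0.11 (middle-aged). Pdk4 was at 0.048 in young mice with library totals. For these, the cause was not tested.

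For age in naïve tissue, 1 member and 603 genes passed; 3 and 1153 did so with no filter on low counts, 3 and 1085 with DESeq2, 0 and 71 with only the libraries compared (fewer samples), and 0 to 2 and 261 to 800 with 1 library left out. For age in lesions, 1 member and 182 genes passed, against 2 and 437 with no filter and 2 and 451 with DESeq2. It was 3 and 818 with only the libraries compared, 2 members with library totals, and 0 to 3 and 45 to 410 with 1 library left out. The 3 members of a left-out fit, 1 higher and 2 lower, passed without middle-aged naïve replicate 2. Those that joined there are not named here. For the difference of injury effects, 0 members and 22 genes passed, against 2 and 329 with no filter, 1 and 228 with DESeq2, and 3 to 56 genes with 1 library left out. Age shifted 2 of 16 isoform ratios, and 0 to 5 with 1 library left out, where 200 arrangements allow few p-values and a ratio at p = 0.005 does not pass alone (exact permutation test). There the mean age shift ran from -0.0915 to 0.13 for Slc2a3/Slc2a1, -0.017 to 0.32 for Hk2/Hk1, -0.24 to 0.35 for Pfkfb4/Pfkfb2, -0.14 to 0.14 for Eno1/Eno2 and -0.041 to 0.54 for Eno3/Eno2.

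Replicate numbers are shared by the groups, but same-numbered libraries did not deviate together (Pearson r across genes from -0.113 to 0.153), so they share only a number. With a replicate block, 23, 22, 2, 1 and 0 members passed in the 5 comparisons (injury in young, injury in middle-aged, age in naïve, age in lesions, difference). Low counts limit Hk3, Pfkfb1, Slc16a3 and Car9 in naïve tissue.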

Other observations

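Glycogen enzymes changed in both directions. Of 11 genes, 3 rose and 5 fell in young mice, and 4 rose and 6 fell in middle-aged mice, against 28.3% of all genes higher and 26.3% lower in young and 29.2% and 29.3% in middle-aged mice. Among glycogen phosphorylases, which release glucose 1-phosphate, the muscle form Pygm fell 3.64-fold and 4-fold, and the liver form Pygl rose 4.73-fold and 2.72-fold. Pygl was at 5.38, 5.44 and 4.95 CPM in young naïve and 22.5, 25.8 and 26.4 CPM in young injured libraries, and Pygm at 87.9, 69.4 and 71.1 against 20.9, 23.6 and 18.2 CPM. Phkg1, a phosphorylase kinase subunit, fell 3.12-fold and 4.07-fold. The median of the list was -0.29 in young and -0.40 in middle-aged mice.

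Of 8 genes of the NADH shuttles, which carry reducing power from the cytosol into mitochondria, 5 fell in young mice, and 4 fell and 1 rose in middle-aged mice, beside the same background. Mdh1, cytosolic malate dehydrogenase, fell 1.97-fold and 2.71-fold, Slc25a12, an aspartate and glutamate carrier, 2.25-fold and 2-fold, and Got1, cytosolic aspartate aminotransferase, 2.30-fold and 1.82-fold in young and middle-aged mice. The list median was -0.57 at each age. The gene that rose, picked after its values were seen, was Gpd1 of the glycerol phosphate shuttle (2.83-fold, adjusted p = 0.000150, against 1.16-fold, adjusted p = 0.499, in young mice).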
